A study of Mus musculus with 6 samples.

Results

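*Ccn1* to *Ccn6* and *Thbs1* to *Thbs4*, the genes of the CCN proteins and of the thrombospondins, were examined in fibroblasts of the pubertal mouse mammary gland. These 10 genes were taken by identifier from the 27179 genes of the deposited count table, by a rule that names the genes and uses no measured value. The study compared CD34hi with CD34lo fibroblasts, both gated as Lin–CD24–Pdgfrα+, from mammary glands of 6 week old FVB/N mice (FVB/NJ in the study's methods), for which the labels name no engineered allele and no treatment. Cells of 3 pools of 2 mice were used, and a CD34hi and a CD34lo library came from the same pool each time, giving 6 libraries with 3 in either population. Each library therefore averages the animals of its pool and all cells of its gate, and in such bulk samples fewer cells of a type and less RNA per cell cannot be told apart.

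CCN proteins are small secreted matricellular proteins, which bind integrins and heparan sulfate proteoglycans in the pericellular matrix and modulate growth factor signaling there rather than building the matrix themselves. Thrombospondins are large secreted calcium-binding glycoproteins. THBS1 and THBS2 form trimers with type 1 repeats that bind CD36 and modulate angiogenesis, whereas THBS3, THBS4 and COMP form pentamers and are known from tendon, cartilage and muscle. *Ccn1* and *Ccn2* are classical targets of the mechanosensitive regulators YAP and TAZ, and THBS1 is also known as an activator of latent TGF-β.

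Promoter sequences are shown for 3 genes that stand for the patterns found, *Ccn1* for a high level in both populations, *Thbs3* for a higher level in CD34hi and *Thbs4* for a higher level in CD34lo fibroblasts. Of the 10 genes, 5 had an entry in the RefSeq promoter table (*Ccn1*, *Ccn6*, *Thbs2*, *Thbs3* and *Thbs4*). Each sequence below gives the 250 bases before the RefSeq start in build GRCm38.p6, 5′ to 3′ on the strand of the gene, with capitals marking matches to the motifs searched.
*Ccn1* (chr3:145649986-145650235, minus strand): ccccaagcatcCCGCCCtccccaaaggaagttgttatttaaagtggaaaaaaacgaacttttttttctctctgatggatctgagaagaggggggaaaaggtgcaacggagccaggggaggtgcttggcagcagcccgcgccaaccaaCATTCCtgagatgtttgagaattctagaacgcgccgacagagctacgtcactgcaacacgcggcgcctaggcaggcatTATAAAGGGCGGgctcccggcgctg
*Thbs3* (chr3:89214930-89215179, plus strand): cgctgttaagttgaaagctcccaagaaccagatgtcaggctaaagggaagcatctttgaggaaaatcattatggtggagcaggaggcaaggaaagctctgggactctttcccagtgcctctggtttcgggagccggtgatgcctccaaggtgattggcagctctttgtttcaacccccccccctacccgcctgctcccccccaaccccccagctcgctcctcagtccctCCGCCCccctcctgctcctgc
*Thbs4* (chr13:92794819-92795068, minus strand): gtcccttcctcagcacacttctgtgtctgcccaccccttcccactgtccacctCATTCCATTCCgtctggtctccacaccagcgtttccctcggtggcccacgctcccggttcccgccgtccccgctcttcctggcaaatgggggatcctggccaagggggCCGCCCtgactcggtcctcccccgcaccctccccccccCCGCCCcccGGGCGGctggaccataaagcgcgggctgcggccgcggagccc

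Both strands were searched, and the background is the share of 32851 promoters of the same length that held a match. The TATA box was searched as TATAAA, which 12.4% of all promoters held. The binding site of TEAD factors was searched as GGAATG, and 12.6% of the promoters held it. The AP-1 site was written TGANTCA, found in 6.75% of them, and the cyclic AMP response element (CRE) TGACGTCA, found in 1.55%. The GC box was searched as GGGCGG, present in 32.7%, and the CArG box of serum response factor was present in 1.47%. The *Ccn1* promoter held a TATA box 25 to 20 bases before the start, directly followed by a GC box, a second GC box farther upstream and the TEAD letters on the reverse strand 103 to 98 bases before the start. The *Thbs4* promoter held 2 TEAD matches on the reverse strand that overlap by 1 base, and 3 GC boxes. The *Thbs3* promoter held 1 GC box. No AP-1, CRE or CArG match was found in these windows, which says only that those letters are not in them. A match is a description of the sequence, and no binding was measured here.

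Library totals ranged from 28764779 to 52402410 counts, and 15219 genes passed the filter on low counts and were tested. Levels are given as CPM, that is counts per 1000000 counts of a library after TMM correction, on which scale 3 counts (the smallest amount taken as measurable, counting error only) corresponded to between 0.0553 and 0.108 CPM. Fold changes are log2 values of CD34hi against CD34lo from edgeR's quasi-likelihood test, followed by the standard error (SE), and a gene was called at a Benjamini-Hochberg adjusted p under 0.05 over all tested genes. The sort was visible in the data, since *Cd34* had 2571 ± 75.2 CPM (SD, n = 3) in CD34hi and 634 ± 158 CPM (SD, n = 3) in CD34lo fibroblasts. *Pdgfra*, which the gate required in both, was present in all libraries and lower in CD34hi, at 754 ± 149 and 1256 ± 197 CPM (SD, n = 3), a log2 fold change of -0.74 (adjusted p = 0.0148, edgeR quasi-likelihood test). The *Pdgfra* call was lost without pool 1 (adjusted p = 0.0586, edgeR), without pool 2 (0.117), without the CD34hi library of pool 1 (0.0698) or pool 2 (0.0677) and without the CD34lo library of pool 3 (0.0534). Both markers of the gate were thus measured in every library. In GENCODE transcripts, *Ccn1*, *Ccn4*, *Ccn5*, *Thbs2* and *Thbs4* shared no 50-base stretch with another gene, *Ccn3* shared 1.13% and *Thbs1* 1.89%, and the shares of the other genes are given with their levels.

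Of the 10 genes, 9 were tested. In the main fit, which has no term for the shared mouse pools, *Ccn3* and *Thbs3* were higher in CD34hi fibroblasts. *Ccn2*, *Ccn4*, *Thbs1* and *Thbs4* were higher in CD34lo fibroblasts, and *Ccn1*, *Ccn5* and *Thbs2* were not called. Thus 6 of 9 were called in either direction, where 35.6% of all tested genes were called, and 2 were called towards CD34hi (16.9% of all tested genes) and 4 towards CD34lo (18.7%). All 6 differed by at least 1 on the log2 scale, and 19.6% of the tested genes were called with a difference of that size. The 3 libraries of each population did not overlap for these same 6 genes, whereas they did not overlap for 50.1% of all tested genes, with CD34hi above CD34lo for 24.8% and CD34lo above CD34hi for 25.3%. The direction was mixed within both families, and the median log2 fold change of the 9 tested genes was 0.14 against -0.0064 over all tested genes. With mouse pool as a block in the fit (replicate block), *Ccn5* was called as well, which made 3 towards CD34hi and 4 towards CD34lo, and 40.5% of all tested genes were called in that fit.

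**Figure D1:**
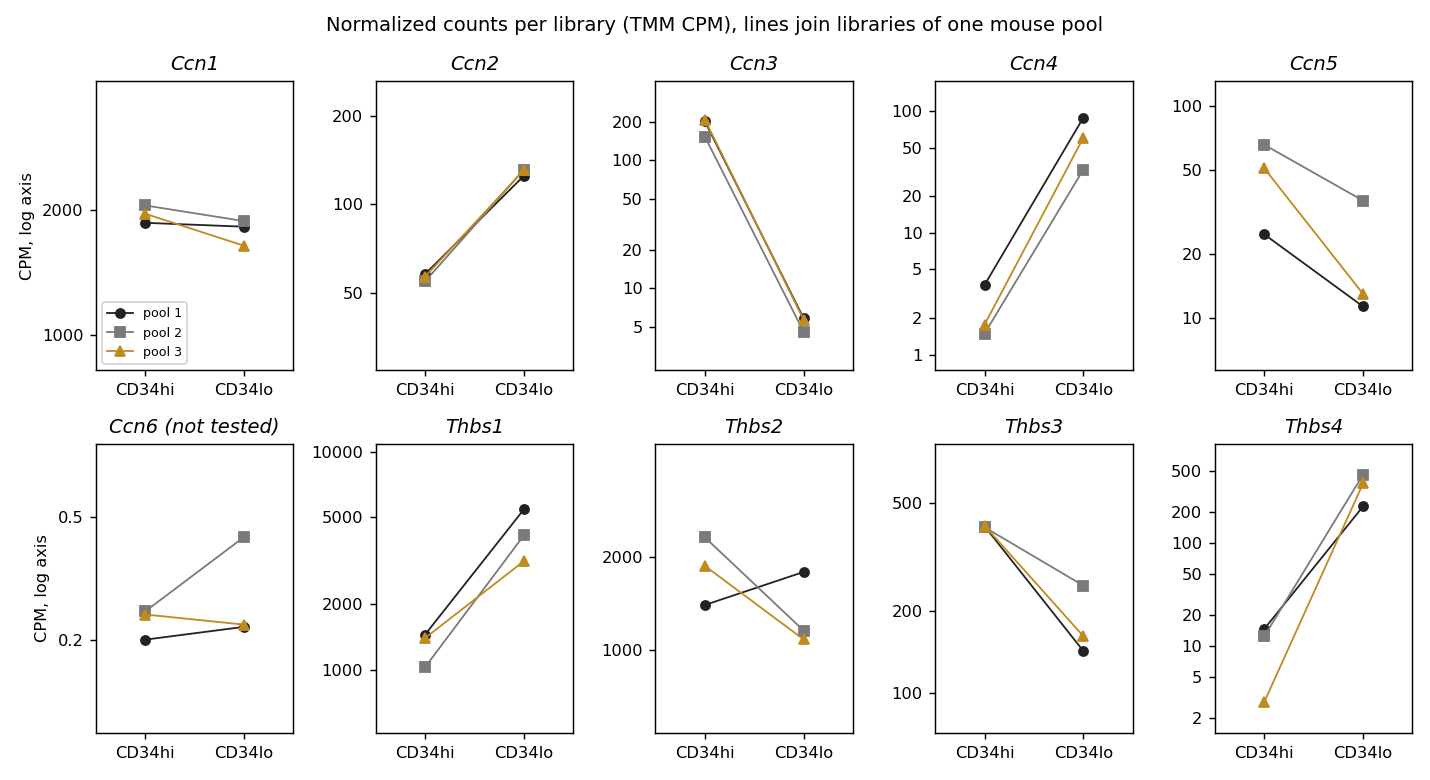
TMM-normalized CPM on log axes for the 10 genes in CD34hi and CD34lo fibroblasts, with 1 point per library and lines joining the libraries of the same mouse pool. *Ccn3* and *Thbs3* fell from CD34hi to CD34lo and *Ccn2*, *Ccn4*, *Thbs1* and *Thbs4* rose in all 3 pools, while the lines of *Thbs2* cross.

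Among the CCN genes, *Ccn3* and *Ccn4* were the most different and in opposite directions. *Ccn3* (formerly *Nov*, gene 18133, GRCm38 chromosome 15, 54745928 to 54753762, plus strand), whose product is known mainly as an inhibitor of growth and fibrosis, had 203, 154 and 208 CPM in CD34hi pools 1, 2 and 3 and 5.83, 4.57 and 5.69 CPM in the matching CD34lo pools. Every CD34hi library was far above every CD34lo library, and the pools were close to each other on either side. The difference was 34.9-fold, a log2 fold change of 5.13 (SE 0.18, adjusted p = 1.45e-06, edgeR quasi-likelihood test), with pool-wise log2 differences of 5.11, 5.06 and 5.18. It ranked 66th from the highest log2 fold change among the 15219 tested genes.

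*Ccn4* (formerly *Wisp1*, gene 22402, chromosome 15, 66891393 to 66923199, plus strand), named as a gene induced by WNT1 and known from bone and fibrotic tissue, went the other way. It had 3.73, 1.49 and 1.76 CPM in CD34hi pools 1, 2 and 3, and 88.1, 33.0 and 60.2 CPM in the CD34lo pools. The populations did not overlap, but the CD34lo libraries varied among themselves and pool 1 was the highest in both. The difference was 25.8-fold, a log2 fold change of -4.69 (SE 0.46, adjusted p = 8.93e-05, edgeR quasi-likelihood test), and the pool-wise log2 differences were -4.54, -4.42 and -5.05. Per kilobase of the length deposited for each gene, *Ccn3* exceeded *Ccn4* by a ratio of 115, 219 and 251 in the CD34hi libraries. The ratio was 0.140, 0.294 and 0.200 in the CD34lo libraries. These ratios did not overlap between populations (exact two-sided permutation test, p = 0.1, the smallest that 3 libraries against 3 allow). That outcome was fixed by the opposite, non-overlapping levels of the 2 genes, so the ratio is a description and its test adds nothing to their calls.

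*Ccn2* (formerly *Ctgf*, connective tissue growth factor, gene 14219, chromosome 10, 24595442 to 24598683, plus strand), a mediator of fibrosis downstream of TGF-β, had 58.1, 54.8 and 56.9 CPM in CD34hi pools 1, 2 and 3 and 125, 131 and 131 CPM in the CD34lo pools. The libraries within each population were nearly the same, and the CD34lo level was 2.28-fold higher. The log2 fold change was -1.19 (SE 0.10, adjusted p = 4.09e-05, edgeR quasi-likelihood test), with pool-wise differences of -1.11, -1.26 and -1.20. In the GENCODE annotation, 17.2% of its 50-base stretches are shared with *Gm15270*, a transcript on the opposite strand, and the library kit does not mark strand, so reads of that transcript could not be told apart from those of *Ccn2* there.

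*Ccn1* (formerly *Cyr61*, gene 16007, chromosome 3, 145646971 to 145649985, minus strand), an immediate early gene that promotes adhesion and angiogenesis, was the most abundant member of its family in both populations. It had 1863, 2053 and 1960 CPM in CD34hi pools 1, 2 and 3 and 1824, 1881 and 1640 CPM in the CD34lo pools. The ranges overlapped, although CD34hi was the higher library in each pool. Its log2 fold change was 0.14 (SE 0.14, adjusted p = 0.479, edgeR quasi-likelihood test), with pool-wise differences of 0.03, 0.13 and 0.26. The per-kilobase ratio of *Ccn1* to *Ccn2* was 38.0, 44.4 and 40.8 in CD34hi and 17.3, 17.0 and 14.9 in CD34lo libraries, again without overlap (exact two-sided permutation test, p = 0.1, the smallest possible). The ratio contains the called and non-overlapping *Ccn2*, so it describes the 2 genes together and its test adds nothing to that call.

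*Ccn5* (formerly *Wisp2*, gene 22403, chromosome 2, 163820834 to 163833146, plus strand), a family member that lacks the C-terminal cystine knot domain, had 24.8, 65.8 and 50.9 CPM in CD34hi pools 1, 2 and 3 and 11.3, 35.8 and 13.0 CPM in the CD34lo pools. The populations overlapped, because pool 2 was high in both and pool 1 was low in both, but the CD34hi library was the higher in each pool. Its log2 fold change of 1.24 did not pass the threshold (SE 0.48, adjusted p = 0.0729, edgeR quasi-likelihood test). With the replicate block it was 1.32 and passed (SE 0.19, adjusted p = 0.000466, the same edgeR test). It also passed when pool 2 was left out (1.64, adjusted p = 0.0107 in edgeR), without the CD34hi library of pool 1 (1.58, 0.0282) and without the CD34lo library of pool 2 (1.95, 0.00652). The pool-wise log2 differences were 1.13, 0.88 and 1.97.

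*Ccn6* (formerly *Wisp3*, gene 327743, chromosome 10, 39150971 to 39163794, minus strand) was near the limit of measurement. It had 9, 9 and 11 counts in CD34hi pools 1, 2 and 3 and 12, 12 and 7 counts in the CD34lo pools, failed the filter on low counts and was not tested. The counts overlapped, and a difference was not detectable at this depth. It also overlaps *Tube1* on the opposite strand, with which 31.8% of its 50-base stretches are shared, so even these few reads are of uncertain origin.

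Among the trimeric thrombospondins, *Thbs1* was higher in CD34lo fibroblasts and *Thbs2* was not called. *Thbs1* (gene 21825, chromosome 2, 118111922 to 118127133, plus strand), whose product restrains angiogenesis and binds CD36 and CD47, had 1452, 1030 and 1401 CPM in CD34hi pools 1, 2 and 3 and 5442, 4134 and 3153 CPM in the CD34lo pools. The lowest CD34lo library was above the highest CD34hi library. The difference was 3.28-fold, a log2 fold change of -1.71 (SE 0.24, adjusted p = 0.000626, edgeR quasi-likelihood test), with pool-wise differences of -1.91, -2.00 and -1.17. Platelets store THBS1 protein, so platelet and megakaryocyte markers are given beside it. *Pf4* was detected only in the CD34hi library of pool 1 (0.0224 CPM), and *Ppbp* was at 0.129 CPM or less in all 6 libraries. Over the 5 platelet and megakaryocyte markers the sum was 14.3 to 18.6 CPM in CD34hi and 24.9 to 34.0 CPM in CD34lo libraries, nearly all of it *Itga2b*, which was called towards CD34lo. The macrophage markers summed to 2.59 to 3.20 CPM in CD34hi and 27.3 to 48.6 CPM in CD34lo libraries. Of these 6 genes, *C1qa*, *Cd163* and *Adgre1* did not pass the filter. Of the 3 tested, 1, *Fcgr2b*, was called towards CD34lo (18.7% of all tested genes were). *Fcgr2b* alone had 43.4, 23.6 and 40.9 CPM in CD34lo pools 1, 2 and 3, nearly the whole sum, while *Adgre1* was at or near 0 in all libraries and *Cd68* was not called at 2.04 CPM in CD34hi and 3.32 CPM in CD34lo fibroblasts. Their part in the *Thbs1* difference was not tested.

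*Thbs2* (gene 21826, chromosome 17, 14665500 to 14694262, minus strand), a close relative of *Thbs1* that is also antiangiogenic and is needed for normal collagen fibrils, had 1396, 2307 and 1867 CPM in CD34hi pools 1, 2 and 3 and 1784, 1156 and 1082 CPM in the CD34lo pools. The populations overlapped, since in pool 1 the CD34lo library was the higher one, with pool-wise log2 differences of -0.35, 1.00 and 0.79. The log2 fold change was 0.47 (SE 0.25, adjusted p = 0.175, edgeR quasi-likelihood test), and the replicate block gave an adjusted p of 0.139 in edgeR. Without pool 1 it was 0.92 and passed (adjusted p = 0.0246, edgeR), and without the CD34lo library of pool 1 it was 0.76 and passed (adjusted p = 0.0445, edgeR). Per kilobase, the ratio of *Thbs1* to *Thbs2* was 1.06, 0.456 and 0.766 in CD34hi and 3.11, 3.65 and 2.97 in CD34lo libraries. These did not overlap (exact two-sided permutation test, p = 0.1, the smallest possible). The ratio contains the called and non-overlapping *Thbs1*, so it is a description and no separate result about *Thbs2*.

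The pentameric thrombospondins also went in opposite directions. *Thbs3* (gene 21827, chromosome 3, 89215187 to 89226837, plus strand), known from skeletal development, had 411, 407 and 413 CPM in CD34hi pools 1, 2 and 3, nearly the same value in each, and 143, 249 and 162 CPM in the CD34lo pools. Every CD34hi library was above every CD34lo library, by 2.22-fold on average. The log2 fold change was 1.15 (SE 0.20, adjusted p = 0.00229, edgeR quasi-likelihood test), with pool-wise differences of 1.52, 0.71 and 1.35. *Thbs3* lies next to *Mtx1* on the opposite strand, and 3.54% of its 50-base stretches are shared with that gene. The per-kilobase ratio of *Thbs2* to *Thbs3* was 1.83, 3.04 and 2.43 in CD34hi and 6.70, 2.50 and 3.59 in CD34lo libraries, which overlapped (exact two-sided permutation test, p = 0.2, where 0.1 is the smallest possible).

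*Thbs4* (gene 21828, chromosome 13, 92751586 to 92794818, minus strand), which is abundant in tendon and in injured muscle and heart, had a fold change about as large as that of *Ccn3*, in the other direction. It had 14.6, 12.4 and 2.84 CPM in CD34hi pools 1, 2 and 3 and 228, 464 and 381 CPM in the CD34lo pools. The populations were far apart, and within CD34hi the library of pool 3 was well below the others. The difference was 35.9-fold, a log2 fold change of -5.17 (SE 0.58, adjusted p = 0.000207, edgeR quasi-likelihood test), which ranked 74th from the lowest among all tested genes. Pool-wise log2 differences were -3.96, -5.22 and -7.04, so the size varied between pools while the direction did not. The log2 fold change was between -5.78 and -4.67 with any pool or library left out.

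Since *Thbs4* is known from tendon and muscle, markers of such cells are given beside it. Of 3 tenocyte markers, *Tnmd* had 0.470 ± 0.237 CPM (SD, n = 3) in CD34hi and 9.70 ± 2.95 CPM (SD, n = 3) in CD34lo fibroblasts (log2 fold change -4.36), *Scx* was not called at 0.413 and 0.373 CPM, and *Mkx* did not pass the filter. The tenocyte sum was 0.911 to 1.03 CPM in CD34hi and 7.41 to 12.2 CPM in CD34lo libraries. Of 4 skeletal muscle markers 2 were tested, and 1 was called towards CD34lo (18.7% of all tested genes were). The skeletal muscle sum was 1.27 to 1.57 CPM in CD34hi and 3.50 to 3.88 CPM in CD34lo libraries. All 5 pericyte and smooth muscle markers were called towards CD34lo, as were 18.7% of all tested genes. Their sum was 7.37 to 8.20 CPM in CD34hi and 58.8 to 67.7 CPM in CD34lo libraries. No marker of these lists was at 0 in all 6 libraries. The sums of these lists moved in the direction of *Ccn4* and *Thbs4*, and their part in those differences was not tested.

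**Figure D2:**
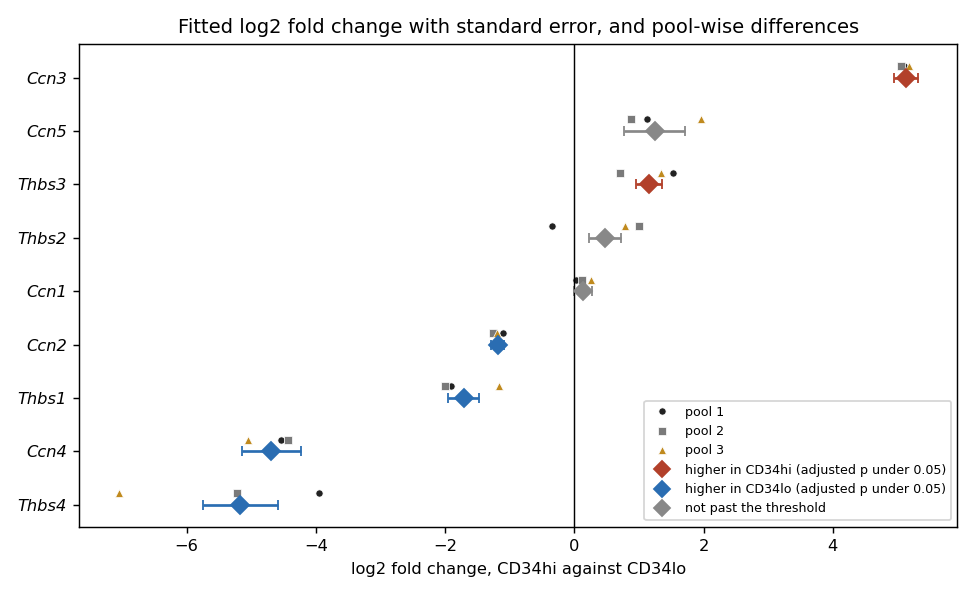
Log2 fold change of CD34hi against CD34lo for the 9 tested genes (diamonds, bars are 1 SE from edgeR), with the log2 difference of each mouse pool as small symbols. Red and blue mark genes called at an adjusted p under 0.05 in the fit without a pool term, and grey the others. *Ccn5*, grey here, was called with the replicate block. *Ccn3* lies at 5.13 and *Thbs4* at -5.17, and *Thbs2* has its pool 1 on the other side of 0.

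Levels were compared between genes per kilobase of the length that the deposited counts give for each gene. In CD34hi fibroblasts the order of the CPM per kilobase was *Ccn1* (966 ± 46.7, SD, n = 3), *Thbs2* (314 ± 76.9), *Thbs1* (223 ± 39.7), *Thbs3* (129 ± 0.863), *Ccn3* (79.5 ± 12.8), *Ccn5* (26.6 ± 11.7), *Ccn2* (23.6 ± 0.682), *Thbs4* (3.11 ± 1.96), *Ccn4* (0.464 ± 0.244) and *Ccn6* (0.163 ± 0.018). Neighbours in this order whose libraries overlapped were *Thbs2* with *Thbs1* and *Ccn5* with *Ccn2*. In CD34lo fibroblasts the order was *Ccn1* (878 ± 62.2, SD, n = 3), *Thbs1* (731 ± 198), *Thbs2* (226 ± 65.1), *Thbs4* (112 ± 37.4), *Thbs3* (58.0 ± 17.7), *Ccn2* (53.7 ± 1.41), *Ccn4* (12.0 ± 5.49), *Ccn5* (11.3 ± 7.72), *Ccn3* (2.27 ± 0.292) and *Ccn6* (0.206 ± 0.085). Here the libraries of *Ccn1* and *Thbs1*, of *Thbs4* and *Thbs3*, of *Thbs3* and *Ccn2*, and of *Ccn4* and *Ccn5* overlapped. Among the 15219 tested genes, *Ccn1* ranked 56th per kilobase in CD34hi and 51st in CD34lo, *Thbs1* moved from 282nd to 68th, *Thbs4* from 9039th to 493rd and *Ccn3* from 771st to 10059th.

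The make-up of each family was taken as the share of its per-kilobase sum. *Ccn1* took 88.1% ± 0.862 (SD, n = 3) of the CCN sum in CD34hi and 91.7% ± 0.296 (SD, n = 3) in CD34lo fibroblasts. The second place passed from *Ccn3* (7.29% ± 1.38) in CD34hi to *Ccn2* (5.62% ± 0.459) in CD34lo fibroblasts, where *Ccn3* had 0.238% ± 0.042. *Ccn4* rose from a share of 0.043% ± 0.025 to 1.27% ± 0.577. Of the thrombospondin sum, *Thbs2* took 46.6% ± 8.86 and *Thbs1* 33.6% ± 7.60 in CD34hi, against 20.0% ± 2.51 and 64.3% ± 4.42 in CD34lo fibroblasts. *Thbs3* went from 19.3% ± 1.32 to 5.30% ± 1.83, and *Thbs4* from 0.474% ± 0.312 to 10.4% ± 4.51. Shares within a family are tied to each other, so a gain of *Thbs1* lowers the others by construction, and they were not tested.

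**Figure D3:**
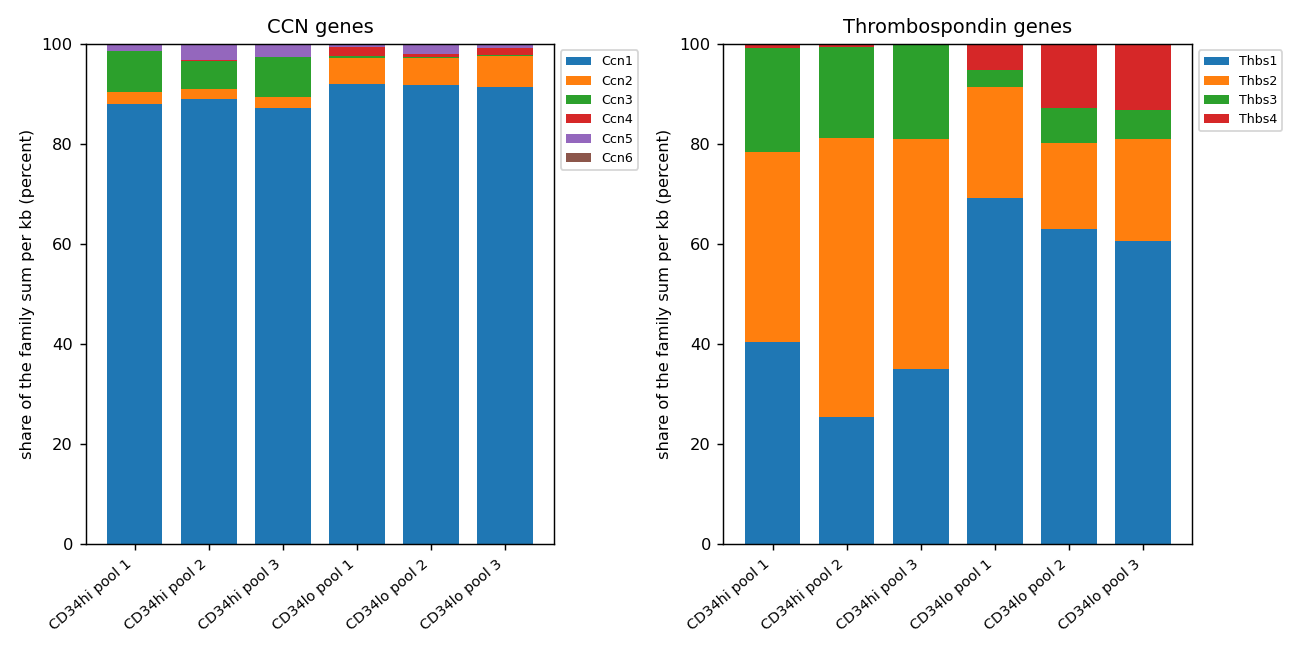
Share of each gene in the per-kilobase sum of the CCN genes (left) and of the thrombospondin genes (right), in percent, with 1 stacked bar per library. *Ccn1* filled between 87.3% and 92.0% of the CCN bars, and *Thbs1* and *Thbs4* were larger in each CD34lo bar than in any CD34hi bar.

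The genes with the most similar pattern over the 6 libraries were found for the called genes at both ends, among 14769 tested genes with a symbol, as the smallest Euclidean distance of centred log2 CPM. For *Ccn3* they were *Nkain2*, *Sema3e* and *Slc4a10*, at distances of 0.513, 0.588 and 0.678. *Sema3e*, a secreted guidance factor, had 35.5 CPM in CD34hi and 0.798 CPM in CD34lo fibroblasts. *Nkain2* had 1.93 CPM in CD34hi and 0 counts in the CD34lo libraries, with a fitted log2 fold change of 9.27. The prior count of 2 in the log2 CPM shrinks differences of genes this low. The small distance of *Nkain2* therefore does not mean a fold change equal to that of *Ccn3*. For *Thbs4* they were *Fmod*, *Col26a1* and *Gpr176*, at distances of 0.981, 1.27 and 1.48. *Fmod*, a collagen-binding proteoglycan of tendon and other dense matrix, had 0.974 CPM in CD34hi and 35.1 CPM in CD34lo fibroblasts, and *Col26a1*, a collagen gene, had 1.06 and 37.9 CPM. The distances were larger for *Thbs4*, which varied more between pools than *Ccn3*.

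Other genes with thrombospondin-type domains were divided as well. Of 12 such genes 11 were tested, with a median log2 fold change of 0.53. Towards CD34hi 6 were called (16.9% of all tested genes were), and towards CD34lo 3 (18.7% of all). The largest differences were in genes of ADAMTS-like proteins, which bind microfibrils, *Adamtsl4* with 364 ± 26.4 CPM (SD, n = 3) in CD34hi and 44.2 ± 12.7 CPM (SD, n = 3) in CD34lo fibroblasts (log2 fold change 3.04), and *Adamtsl2* with 1.59 ± 0.307 and 30.3 ± 17.3 CPM (log2 fold change -4.25). The spondin genes went in opposite directions, with log2 fold changes of 1.00 for *Spon2* and -1.19 for *Spon1*. *Spon1* was no longer called without pool 2 (adjusted p = 0.0957, edgeR), without the CD34hi library of pool 2 (0.0721) and without the CD34lo library of pool 1 (0.0617) or pool 3 (0.0870). *Comp*, the fifth thrombospondin and a pentamer like *Thbs4*, was low, with 0.358, 0.469 and 0.176 CPM in CD34hi pools 1, 2 and 3 and 0.867, 1.40 and 0.514 CPM in the CD34lo pools. The libraries did not overlap, as for 50.1% of all tested genes, but the log2 fold change of -1.47 did not pass (SE 0.52, adjusted p = 0.0555, edgeR quasi-likelihood test). With the replicate block it passed (adjusted p = 0.0272, edgeR), as it did without the CD34lo library of pool 3 (adjusted p = 0.0392, edgeR).

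Receptor genes of both families were examined next. Of 10 genes of CCN receptors, all tested, 1 was called towards CD34hi (16.9% of all tested genes were) and 4 towards CD34lo (18.7% of all). Their median log2 fold change was -0.26. With the replicate block 2 and 4 were called, where 40.5% of all tested genes were called in either direction. Integrin *Itgb3*, a partner of αv that binds both families, had 141 ± 20.0 CPM (SD, n = 3) in CD34hi and 70.9 ± 12.1 CPM (SD, n = 3) in CD34lo fibroblasts, a log2 fold change of 1.00. The laminin-binding integrin *Itga6* was higher in CD34lo, with 2.59 ± 0.895 CPM (SD, n = 3) in CD34hi and 6.22 ± 1.18 CPM (SD, n = 3) in CD34lo fibroblasts, a log2 fold change of -1.26. Without pool 1, *Itga6* was not called (adjusted p = 0.0697, edgeR) and 3 of the 10 genes were called in all. Calls over all genes fell in that fit too, from 5411 to 3468. The αv, α5 and β1 integrin genes and *Lrp1*, a large endocytic receptor, were not called. *Itgb5*, the gene of integrin β5, was not called either (log2 fold change 0.35, adjusted p = 0.0518, edgeR quasi-likelihood test) but was called towards CD34hi with the replicate block (adjusted p = 0.0409, edgeR).

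Of 10 genes of thrombospondin receptors, 2 were called towards CD34hi (16.9% of all tested genes were) and 3 towards CD34lo (18.7% of all). Their median log2 fold change was -0.26. *Cd36*, the scavenger receptor that binds the type 1 repeats of THBS1 and THBS2, had 8.65, 12.4 and 13.6 CPM in CD34hi pools 1, 2 and 3 and 38.2, 46.8 and 66.8 CPM in the CD34lo pools. It was higher in every CD34lo library, as was *Thbs1*, with a log2 fold change of -2.13 (SE 0.24, adjusted p = 0.000212, edgeR quasi-likelihood test). *Cd47*, which binds the C-terminal domain of THBS1, had 144, 136 and 136 CPM in CD34hi and 93.6, 102 and 108 CPM in CD34lo pools 1, 2 and 3, a log2 fold change of 0.46 (SE 0.11, adjusted p = 0.0104, edgeR quasi-likelihood test). *Cd47* was not called without pool 1 (adjusted p = 0.109, edgeR) or without pool 2 (adjusted p = 0.0869, edgeR), and 3 of the 10 receptors were called in each of these fits. Calls over all genes also fell, from 5411 to between 3468 and 5236 with pools or libraries left out. *Itga4* was called at a log2 fold change of -2.15 but was at most 1.13 CPM, and it was not called without pool 2 (adjusted p = 0.0629, edgeR) or pool 3 (adjusted p = 0.0532, edgeR).

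In the Hippo pathway, whose effectors YAP and TAZ drive *Ccn1* and *Ccn2* through TEAD factors, the effector genes were higher in CD34lo fibroblasts. Of 14 tested genes of 15, 3 were called towards CD34hi (16.9% of all tested genes were) and 5 towards CD34lo (18.7% of all). The median log2 fold change was -0.090. *Yap1* had 63.8 ± 1.37 CPM (SD, n = 3) in CD34hi and 107 ± 9.50 CPM (SD, n = 3) in CD34lo fibroblasts (log2 fold change -0.75), *Wwtr1*, which encodes TAZ, had 125 ± 8.63 and 220 ± 29.1 CPM (-0.82), and *Tead2* had 8.82 ± 2.52 and 29.3 ± 5.67 CPM (-1.73). The kinase gene *Lats2* and its cofactor gene *Mob1a*, which restrain YAP, were higher in CD34hi, at 0.59 and 0.53. The number of calls varied with the libraries used, and 4 of the 14 genes were called without pool 1 and 5 without pool 2, without the CD34hi library of pool 1 or without that of pool 2. Calls over all genes fell as well, from 5411 to between 3468 and 5236 with pools or libraries left out. *Mob1a* was not called without pool 1 (adjusted p = 0.0728, edgeR) or pool 2 (adjusted p = 0.0804, edgeR).

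Other target genes of YAP and TEAD did not share 1 direction. Of 22 genes, 9 were called towards CD34hi (16.9% of all tested genes were) and 8 towards CD34lo (18.7% of all). The median log2 fold change was 0.27. *Ankrd1*, another classical target, went against *Ccn2*, with 2.67 ± 0.434 CPM (SD, n = 3) in CD34hi and 0.191 ± 0.098 CPM (SD, n = 3) in CD34lo fibroblasts, a log2 fold change of 3.89 (SE 0.42, adjusted p = 0.00016, edgeR quasi-likelihood test). *Tgfb2* was also higher in CD34hi (3.29). *F3*, which encodes tissue factor, and *Dock5* were higher in CD34lo fibroblasts, at -3.51 and -3.24. The list thus held genes that moved with *Ccn2*, against it, and, like *Ccn1*, in neither direction past the threshold.

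Of 21 genes of the TGF-β axis, 4 were called towards CD34hi (16.9% of all tested genes were) and 6 towards CD34lo (18.7% of all). The median log2 fold change was -0.13. With the replicate block 6 and 7 were called, where 40.5% of all tested genes were called in either direction. The ligand genes differed in direction, *Tgfb2* with 121 ± 17.3 CPM (SD, n = 3) in CD34hi and 12.5 ± 2.66 CPM (SD, n = 3) in CD34lo fibroblasts, and *Tgfb1*, whose latent product THBS1 can activate, with 9.10 ± 0.742 and 19.6 ± 4.83 CPM (log2 fold change -1.11). The integrin genes on this list were *Itgb6* and *Itgb8*, which were low and opposite. *Itgb6* was at 1.71 CPM in CD34hi and 0.083 CPM in CD34lo, near the smallest measurable amount. *Itgb8* was at 0.437 and 4.48 CPM (log2 fold change -3.34).

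Of 12 targets of Wnt and β-catenin signaling, the pathway for which *Ccn4* was named, 8 were tested, with a median log2 fold change of -0.96. Towards CD34hi 1 was called (16.9% of all tested genes were), and towards CD34lo 5 (18.7% of all). *Tcf7*, a transcription factor, had 0.382 ± 0.172 CPM (SD, n = 3) in CD34hi and 10.6 ± 4.48 CPM (SD, n = 3) in CD34lo fibroblasts (log2 fold change -4.76). *Nkd2*, a feedback inhibitor, had 5.27 ± 0.416 and 66.4 ± 5.80 CPM (-3.65). *Apcdd1*, another inhibitor, was higher in CD34hi (1.27). *Ccn4* was at -4.69, and the part of Wnt signaling in its difference was not tested.

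*Ccn1*, *Ccn2* and *Thbs1* are also induced quickly by serum, stretch and tissue dissociation, so immediate early and stress genes are given beside them. Of 22 such genes, 14 were called towards CD34lo (18.7% of all tested genes were) and 0 towards CD34hi (16.9% of all) in edgeR. The median log2 fold change was -0.91. Towards CD34hi, 1 gene, *Fosl1*, had an unadjusted p under 0.05 (0.0247, edgeR quasi-likelihood test, log2 fold change 1.05), and 1 gene was called with the replicate block, with DESeq2 and in 5 other alternatives. *Fosl1* was chosen after its values were seen. Their summed level was 32139 to 35826 CPM in CD34hi and 52341 to 69014 CPM in CD34lo libraries, with no gene at 0 in all libraries. *Fos* had 3932 ± 792 CPM (SD, n = 3) in CD34hi and 8494 ± 1688 CPM (SD, n = 3) in CD34lo fibroblasts (log2 fold change -1.11), and *Egr2* and *Egr3* differed by -2.55 and -3.04. *Egr1* did not pass at -0.46 (adjusted p = 0.101, edgeR quasi-likelihood test), though it did without the CD34hi library of pool 3 (adjusted p = 0.0484, edgeR). *Ccn2* and *Thbs1* moved in the direction of the called genes and *Ccn1* was not called, and the part of the early response in these differences was not tested.

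**Figure D4:**
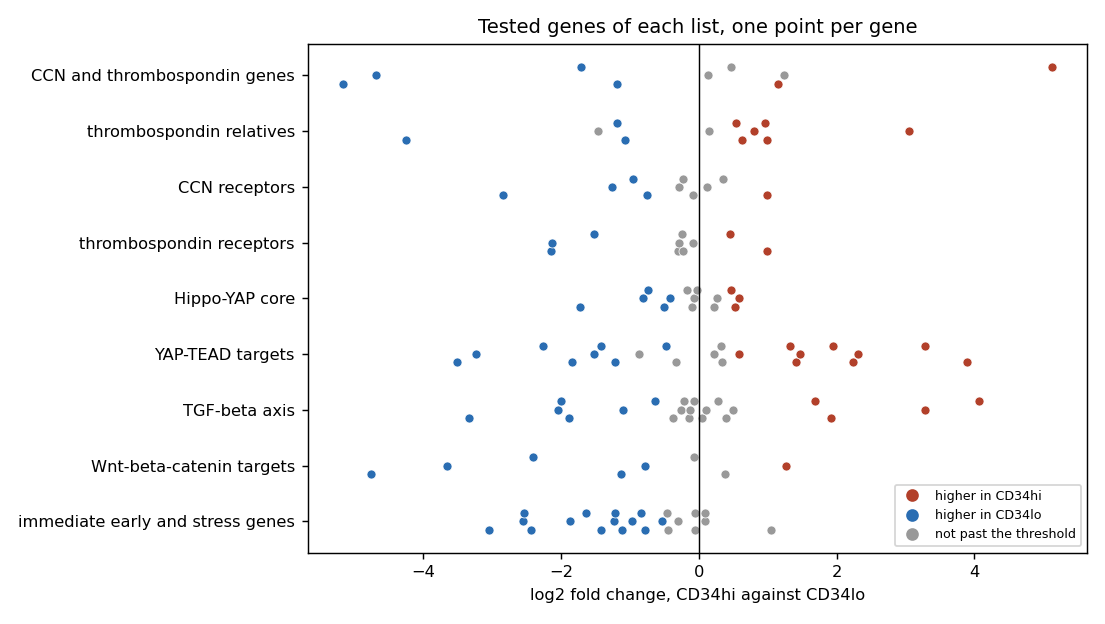
Log2 fold change of CD34hi against CD34lo for the tested genes of each list, with 1 point per gene, offset vertically for visibility, red and blue where called. The calls are those of the fit without a pool term. The CCN and thrombospondin genes spread from -5.17 to 5.13, and the called immediate early and stress genes all lie on the CD34lo side.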

How the data were processed

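Polyadenylated RNA of sorted fibroblasts was sequenced by the authors from TruSeq RNA v2 libraries, a kit that does not mark strand, and reads were aligned to GRCm38/mm10 and counted per gene with Rsubread. The deposited values are whole-number counts without normalization; the annotation and strand setting used for counting are not given in the sources used here. The labels give the mouse pool, so that same-numbered libraries come from the same animals, and their deviations from the population means had correlations of 0.279, 0.0844 and 0.243 across genes.

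The tests were run with edgeR 4.0.16 in R 4.3.3 (filterByExpr by population, TMM, quasi-likelihood test without a pool term, Benjamini-Hochberg adjustment, threshold 0.05). SE is the absolute log2 fold change over the square root of F. The permutation tests of ratios moved libraries freely between the populations and did not keep pools paired. Their smallest possible p holds for that unpaired scheme only. Log2 CPM used a prior count of 2. The alternatives were limma-voom (limma 3.58.1), DESeq2 1.42.0, other scalings, filters and thresholds, thinning, the replicate block and left-out pools or libraries. Symbols were found for 25275 of 27179 genes. Replicates differed by more than sampling noise (chi-square over its degrees of freedom 23.4 or more), and the common biological coefficient of variation was 19.7%. Shared 50-base stretches were counted in GENCODE M21 transcripts on either strand.

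The 10 genes and all lists were chosen with earlier results of these data known. Named from each list are up to 2 called genes on each side with the largest change, and *Comp*, *Cd36*, *Cd47*, *Yap1*, *Wwtr1*, *Ankrd1*, *Tgfb1*, *Fos* and *Egr1* whatever their values; other names were added after their values were seen. Results for some genes of the lists are not given. The fit was tested on simulated counts.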

Additional observations from a re-analysis of the deposited data

How the results depend on the processing

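The log2 fold changes of Ccn2, Ccn3, Ccn4, Thbs1, Thbs3 and Thbs4 kept their direction and an adjusted p under 0.05 in all 21 alternatives, and that of Ccn1 stayed uncalled in all 21. Over the 9 tested genes, 180 of 189 comparisons kept direction and call, and the other 9 concern Ccn5 and Thbs2, which passed where they had not; 6 or 7 of the 9 genes were called in every alternative. The log2 fold change of Ccn5 was 1.38 with limma-voom, 1.27 with no filter on low counts, 1.32 with the replicate block in edgeR and 1.30 with the replicate block in limma-voom, and ranged from 0.93 to 1.95 with pools or libraries left out (adjusted p 0.00652 to 0.309, edgeR). The log2 fold change of Thbs2 ranged from 0.19 to 0.92 in those fits (adjusted p 0.0246 to 0.692, edgeR). The count of called genes, 5411, was 3444 (1559 higher in CD34hi, 1885 in CD34lo) at an adjusted p under 0.01, 2986 (1164 and 1822) where a difference of at least 1 on the log2 scale was also required, and 3468 to 5236 (1608 to 2456 and 1860 to 2780) with pools or libraries left out, where fewer samples enter. Upper-quartile scaling moved the median of all genes from -0.0064 to -0.059. With no length correction, the share of Ccn1 in its family was 86.9% in CD34hi and 89.2% in CD34lo, that of Ccn2 2.52% and 6.48%, that of Ccn4 0.105% and 3.04%, that of Ccn6 0.010% in CD34hi, that of Thbs1 68.8% in CD34lo, and that of Thbs3 11.5% and 3.14%; these shifts follow from the lengths. Among 686 comparisons of other named genes, 651 kept direction and call, 27 lost and 8 gained the call, and none reversed; Comp, Ankrd1, Itga4, Itgb6 and Tcf7, among others, were not fitted under a minimum of 10 counts in each library, nor Itga4 with thinned counts. Of 504 list counts, 43 moved by over 1.5 times. In edgeR the replicate block added, among others, the calls of Ccn5, Comp, Itgb5, Fosl1, Igfbp3, Tgfbr3, Skil and Smad3. Where not stated, the cause was not tested.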
